A study of Homo sapiens and Mus musculus with 12 samples.

Results

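The 6 mouse colon libraries of the study separated into a distal-type pair and a proximal-type group of 4 by their level of Hoxb13, a homeobox gene of the hindgut end of the HOXB cluster. The distal-type libraries, above 100 FPKM of Hoxb13, were wild-type replicates 1 and 3, and the proximal-type libraries, below 100 FPKM, were wild-type replicate 2 and Zfp280c knock-out replicates 1, 2 and 3. Both distal-type libraries were therefore wild-type, and wild-type replicate 2 was the only wild-type proximal-type library, so colon type and Zfp280c genotype cannot be told apart in the comparison of the 2 types. The other 6 of the study's 12 samples were cultures of RKO, a human colon cancer line with an inducible short hairpin RNA against ZNF280C, and take no part here. Zfp280c is the mouse counterpart of ZNF280C, a zinc finger protein gene.

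The mice were C57BL/6J, killed at 12 weeks of age; 3 libraries came from Zfp280c knock-outs and 3 from wild-type mice. RNA came from colon tissue, its polyadenylated fraction was selected with oligo(dT) beads, and random-primed cDNA was sequenced. The labels give no colon segment, sex, litter or date, do not say whether the knock-out was confined to a cell type, and number the replicates without further statement of their source. FPKM, fragments scaled to transcript length and to the library's mapped fragments, is the unit of every level below, and it is compared between libraries for 1 gene at a time. Throughout, levels are listed in 1 order, with the distal-type wild-type replicates 1 and 3 first, and after "against" the proximal-type wild-type replicate 2 and knock-out replicates 1, 2 and 3.

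The mammalian colon changes along its length. HOX genes are laid out in clusters whose order matches the order of their domains along the body, so genes at the 5′ end of a cluster, such as Hoxb13 and Hoxd13, mark the most caudal gut, while genes nearer the 3′ end, such as Hoxb6, reach further forward. The proximal colon receives ileal content and keeps some capacity for bile acid and lipid handling, whereas the distal colon absorbs the last sodium and water through aldosterone-responsive channels and pumps. Mucus, antimicrobial lectins, hormone cells and resident immune cells also differ between the ends.

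Hoxb13 differed by the rule itself; of the other 2 markers, Hoxb6 was low in both distal-type libraries and Hoxd13 was abundant in only 1 distal-type library. Hoxb13 stood at 336.32 and 506.98 against 14.72, 2.23, 12.90 and 18.89 FPKM. The lowest library above the threshold of 100 FPKM had 336.32 FPKM and the highest below it had 18.89 FPKM, so no library lay near it. Hoxb6 stood at 0.65 and 0.20 against 18.23, 18.24, 8.91 and 17.63 FPKM, and Hoxd13 at 0.96 and 68.45 against 0.09, 0.02, 0.16 and 0.11 FPKM. Hoxb6 did not overlap; Hoxd13 was abundant in wild-type replicate 3 and below 1 FPKM in wild-type replicate 1, though still above all proximal-type values. The members were chosen by the measured levels of Hoxb13, so every difference between the types is a description with no test.

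The deposited FPKM sums ran from 491900.47 to 507206.33 per library and 1107 to 1335 of 17383 genes were listed at 0; read depth is unknown, since the values show no whole-read steps. Zfp280c itself stood at 0.09, 0.09 and 0.22 FPKM in the knock-outs and at 2.48, 2.25 and 3.17 FPKM in wild-type replicates 1, 2 and 3. The knock-out libraries were thus all below the wild-type libraries of either type. Of 10 pan-epithelial markers 3 overlapped between the types, Epcam (1017.41 and 917.25 against 1046.52, 983.62, 1060.72 and 1029.31 FPKM) among them. Another 5 lay below the proximal-type range and 2 above, all by less than 1 log2, against 22.0% below and 21.7% above over all measured genes. Krt20, a keratin of mature surface cells, lay furthest off, at 1000.92 and 604.00 against 1424.11, 1477.09, 1720.42 and 1314.91 FPKM (-0.92). Knock-out replicate 2 stood apart from the other proximal-type libraries over the whole table, with the lowest of the 4 values for 52.9% of genes, the lowest median log2(FPKM + 1), 3.45, and the most genes at 0.

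A total of 11366 genes had a mean of at least 1 FPKM over the 6 libraries. More of these were proximal-type than distal-type, so a gene present in only 1 type passed at a lower level if that type was proximal. A gene near 0 in 1 type could pass only through the other, and could then be called in 1 direction only. Counts and medians of lists with such genes were partly set by the minimum. A gene is called higher or lower here when both distal-type libraries lay outside the range of all 4 proximal-type libraries and the mean of log2(FPKM + 1) differed by at least 1. By that measure 269 genes were higher in the distal-type libraries, 2.37% of those examined, and 387 were lower, 3.40%. Without the size criterion 2465 genes (21.7%) lay above and 2503 (22.0%) below all proximal-type libraries. Because the grouping used these libraries, nothing is read from those shares; they are the background for the member counts that follow. The median difference over all genes was 0.01 on the log2(FPKM + 1) scale, which understates the change of genes with low levels, and the median was 1.44 among higher and -1.47 among lower genes.

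**Figure D1:**
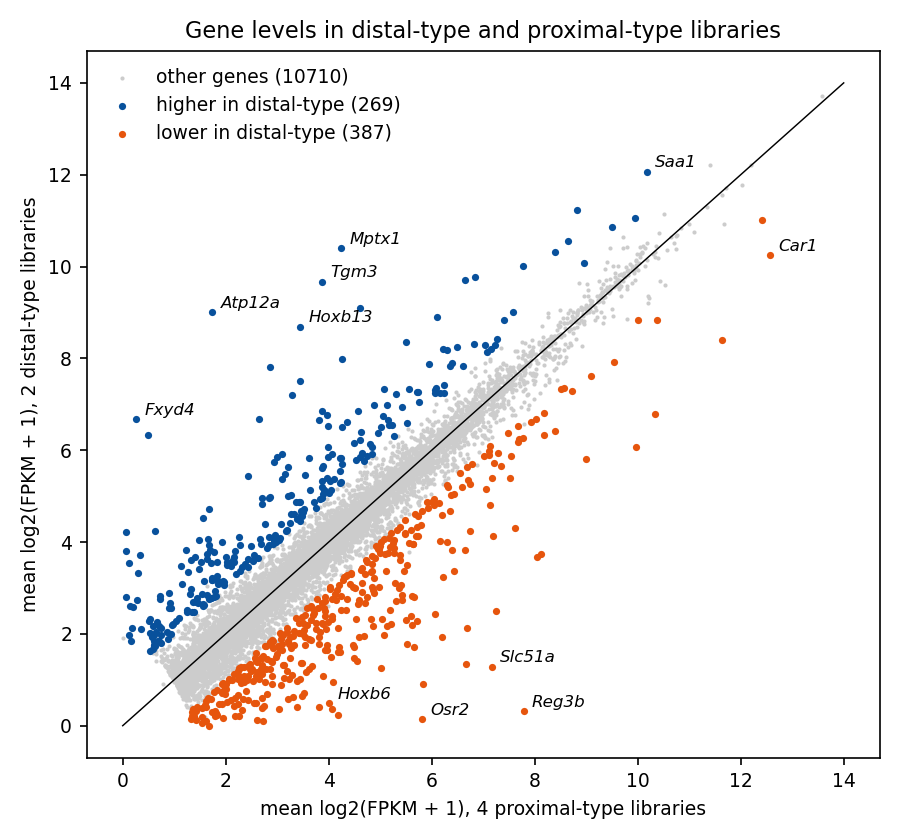
Mean log2(FPKM + 1) of each gene in the 4 proximal-type libraries (x axis) against the mean in the 2 distal-type libraries (y axis), with the 269 higher and 387 lower genes coloured and some named. Atp12a lies furthest above the diagonal, by 7.26, and Reg3b furthest below it, at -7.46.

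Atp12a was the gene furthest above in the distal-type libraries. It encodes the catalytic subunit of the colonic H+/K+ ATPase and stood at 418.43 and 627.54 against 3.73, 0.80, 1.84 and 4.17 FPKM, a difference of 7.26 log2. Fxyd4, a small regulator of Na+/K+ ATPase that responds to aldosterone, was at 47.95 and 215.25 against 0.31, 0.21, 0.00 and 0.31 FPKM (6.42). Mptx1, a mucosal pentraxin, was at 1575.67 and 1164.94 against 19.82, 5.40, 54.07 and 16.18 FPKM (6.17). These 3 genes were nearly silent or at a small fraction of the distal-type level in every proximal-type library. Slc37a2, a sugar phosphate exchanger, stood at 69.38 and 91.32 against 0.61, 0.19, 0.22 and 0.68 FPKM, and Tgm3, a protein-crosslinking transglutaminase, at 673.41 and 986.76 against 18.74, 3.33, 16.29 and 29.33 FPKM. Neither overlapped. Ly6g, a surface protein best known from neutrophils, stood at 188.77 and 268.34 against 8.55, 3.20, 8.75 and 6.28 FPKM, and Sval1, related to seminal vesicle antigen, at 468.66 and 632.37 against 43.74, 9.71, 18.29 and 38.16 FPKM. Others among the 15 furthest above were the sialyltransferase St8sia5 (4.15), the N-acetylglucosaminyltransferase B3gnt7 (4.05), the cytochromes Cyp2d12 (4.04) and Cyp2f2 (3.61), the secreted lectin Reg4 (3.92), the caspase Casp14 (3.74) and the glycolytic enolase Eno3 (3.73).

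Reg3b was the gene furthest below in the distal-type libraries. Its product is a secreted bactericidal lectin, and it stood at 0.29 and 0.22 against 208.06, 448.78, 307.87 and 80.17 FPKM (-7.46 log2). Slc51a, a subunit of the basolateral bile acid exporter, was at 3.0 and 0.49 against 125.93, 210.06, 98.72 and 159.77 FPKM (-5.88). Osr2, a zinc finger transcription factor of the proximal colon, was at 0.13 and 0.09 against 51.49, 74.46, 37.19 and 64.06 FPKM (-5.66). None of the 3 exceeded a few FPKM in the distal-type libraries. Retnlb, the goblet cell product RELM-beta, stood at 3.35 and 0.47 against 123.76, 100.09, 125.91 and 66.49 FPKM, and Sptssb, a subunit of serine palmitoyltransferase, at 23.07 and 0.31 against 133.71, 181.14, 194.61 and 111.45 FPKM. Both were low in wild-type replicate 3 and somewhat less so in replicate 1. Plet1 (-4.57), Apol10a (-4.37), the cytochromes Cyp2c65 (-4.36) and Cyp4b1 (-4.25), Prap1 (-3.96), the neuropeptide Nts (-3.94), the fatty acid carrier Fabp2 (-3.89), the glucuronosyltransferase Ugt2b5 (-3.76) and the bile acid importer Slc10a2 (-3.76) were also among the 15 furthest below.

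**Figure D2:**
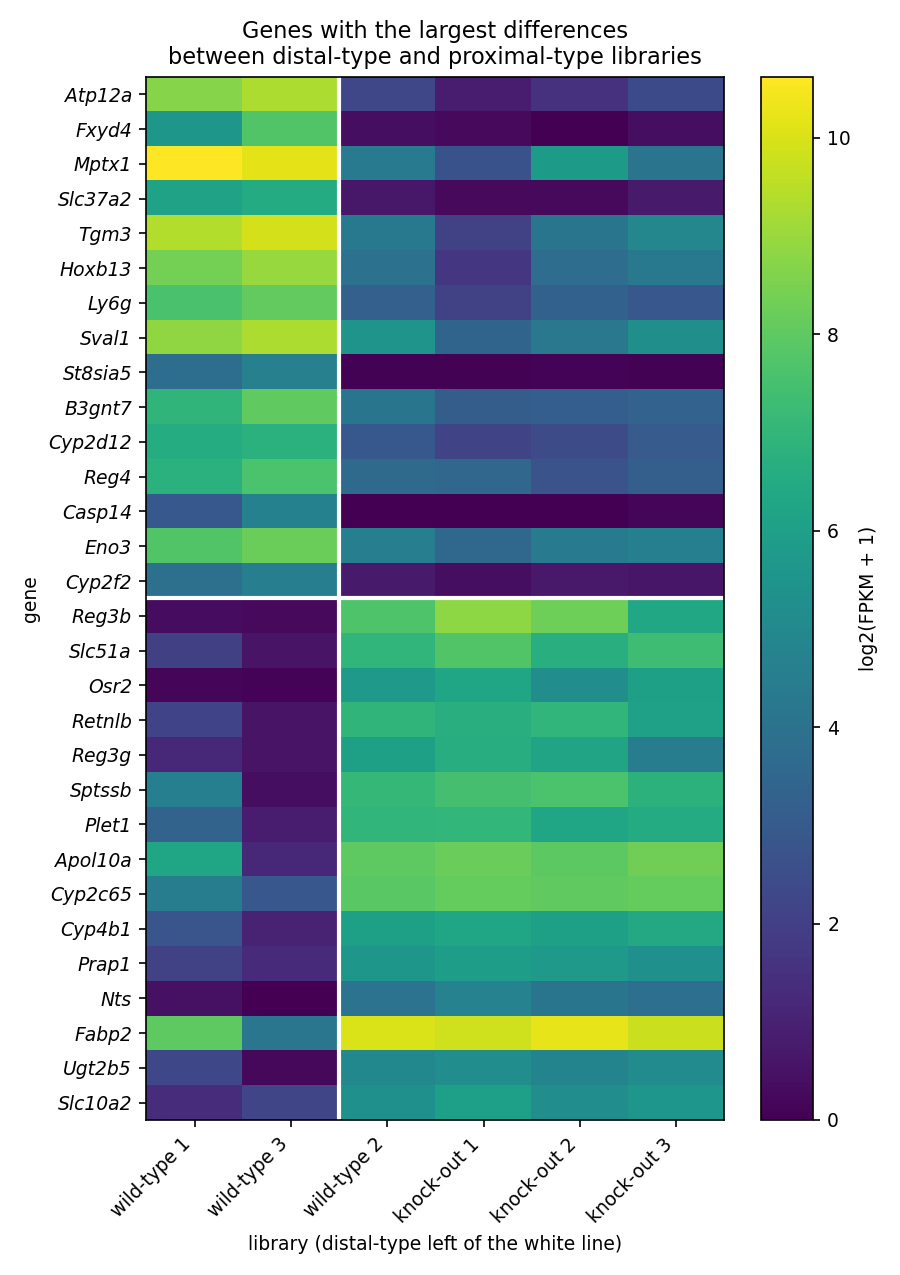
Level of the 15 genes furthest above and the 15 furthest below in the distal-type libraries, as log2(FPKM + 1) in each of the 6 libraries (columns; colour scale). The white line separates wild-type replicates 1 and 3, on the left, from the other 4 libraries, and no gene shown overlaps between the sides.

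The HOX clusters differed by cluster as well as by position. Of 23 listed genes of paralogue groups 1 to 8, 21 were in the table and 13 passed the minimum; 8 were lower and 0 higher, with a median difference of -1.77. All 6 measured genes from Hoxb3 to Hoxb8 lay at or below 0.65 FPKM in the distal-type libraries and at or above 2.80 FPKM in the proximal-type ones. These 6 passed the minimum only through their proximal-type levels, so the count and median of this list were partly set by the minimum. Hoxb7, for instance, stood at 0.34 and 0.30 against 8.58, 12.86, 7.43 and 9.37 FPKM, and Hoxd4 at 0.13 and 0.13 against 4.30, 4.38, 0.99 and 2.92 FPKM. The HOXA genes of the same groups did not follow, and all 5 that passed overlapped; Hoxa5 stood at 7.91 and 7.67 against 9.04, 6.30, 6.68 and 6.77 FPKM. Of 16 genes of groups 9 to 13, 14 were in the table, and 8 passed. Setting aside Hoxb13, which chose the libraries, 2 of 7 were higher (Hoxa11 and Hoxd13) and 0 lower, with a median of 0.75. Hoxd13 passed the minimum only through wild-type replicate 3. Without wild-type replicate 3 neither Hoxa11 (0.94) nor Hoxd13 (0.84) differed by 1 log2. Hoxa11 stood at 16.57 and 20.14 against 10.16, 6.04, 7.70 and 9.34 FPKM, and Hoxa13 at 21.13 and 19.34 against 12.36, 6.37, 11.20 and 13.73 FPKM; both lay above all proximal-type values, Hoxa13 by less than 1 log2 on average. Hoxb9, the neighbour of Hoxb8, went the other way, at 17.99 and 16.00 against 31.59, 32.14, 21.74 and 27.43 FPKM. Hoxd10 (0.26 and 4.57 against 0.44, 0.86, 0.33 and 0.73 FPKM) and Hoxd11 (0.18 and 4.39 against 0.14, 0.31, 0.09 and 0.13 FPKM) were above 4 FPKM in wild-type replicate 3 only, as Hoxd13 was abundant in that library only.

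**Figure D3:**
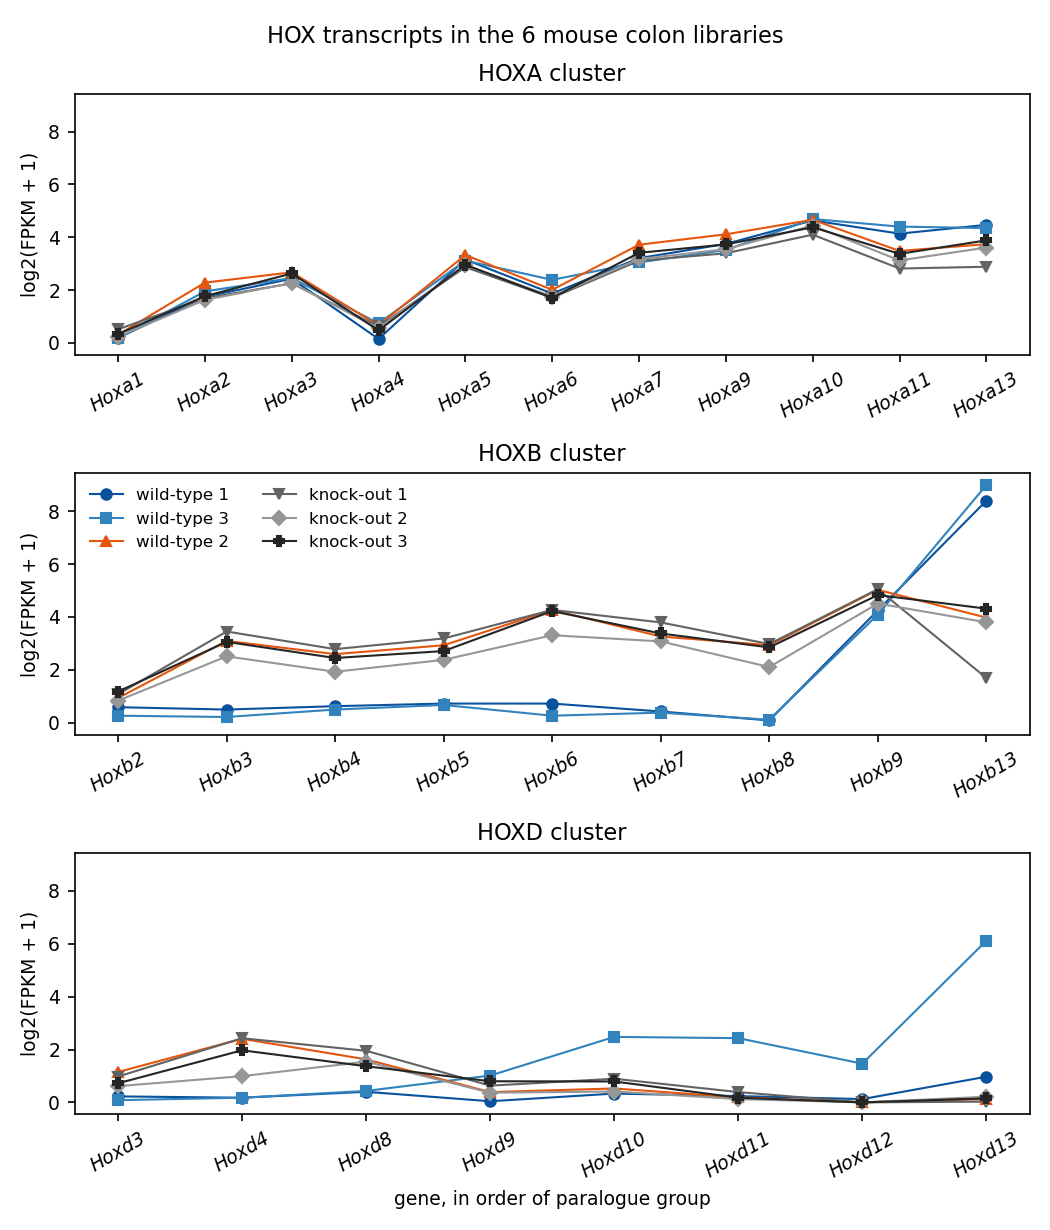
Level of genes of the HOXA, HOXB and HOXD clusters as log2(FPKM + 1) (y axis), in order of paralogue group (x axis), with 1 line for each of the 6 libraries. Hoxb3 to Hoxb8 sit near 0 in both wild-type replicates 1 and 3, Hoxb13 is high in both, and the HOXD genes of high number are high in wild-type replicate 3 alone.

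Among 39 gut patterning transcription factors, 38 were in the table and 29 passed; 1 was higher and 5 were lower, with a median of -0.15. Foxa2, a forkhead factor of endoderm and secretory cells, was the higher one, at 7.99 and 11.03 against 5.75, 3.28, 2.80 and 3.95 FPKM. Besides Osr2, the lower ones were Isx, a repressor of vitamin A uptake genes, at 48.15 and 5.30 against 139.43, 156.28, 128.41 and 158.11 FPKM, the T-box factor Tbx3 at 0.46 and 0.61 against 9.39, 10.92, 7.29 and 8.32 FPKM, the lipid regulator Creb3l3 at 5.04 and 2.54 against 14.67, 12.03, 11.45 and 18.21 FPKM, and Cdx2 at 81.21 and 33.28 against 154.94, 139.92, 150.87 and 144.02 FPKM. Cdx2, a master regulator of intestinal identity, was thus lower in both, most in wild-type replicate 3, while its relative Cdx1 (152.07 and 158.05 against 187.90, 171.52, 158.90 and 165.74 FPKM) differed by only -0.14. Without wild-type replicate 3 the differences of Cdx2 and Foxa2 were -0.85 and 0.90, short of 1 log2; that of Foxa2 was 0.62 against wild-type replicate 2 alone. Hnf4a, which controls enterocyte genes, overlapped (289.25 and 251.02 against 288.84, 268.65, 314.97 and 291.36 FPKM).

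Of 16 genes listed for distal colon epithelium, all passed and 12 were higher, with 1 lower and a median of 2.40. The list was drawn up with earlier results of these libraries known, so its direction is not independent evidence. Its members Fxyd4 and Scnn1g passed the minimum only through their distal-type levels. Insl5, a hormone of distal colonic L cells, stood at 103.37 and 96.03 against 17.46, 6.54, 12.87 and 19.28 FPKM, and the phosphate importer Slc20a1 at 317.55 and 341.19 against 40.08, 42.85, 48.38 and 46.86 FPKM. The peroxidase Prdx6 was at 1896.79 and 3087.28 against 458.63, 352.70, 589.07 and 423.81 FPKM. None of these overlapped. The tight junction protein Cldn4 was the exception in direction, at 48.80 and 40.02 against 88.78, 89.96, 112.07 and 84.06 FPKM. Aqp8, a water channel, overlapped (1092.12 and 576.27 against 540.43, 262.85, 641.73 and 498.67 FPKM), and Lypd8, which keeps flagellated bacteria from the epithelium, was abundant in all libraries and differed by 0.13. Of 15 genes listed for proximal colon epithelium, 14 passed, 8 were lower and 1 higher, with a median of -1.69. The higher one was Saa1, a serum amyloid protein, at 4660.32 and 3955.55 against 1210.65, 764.84, 1217.88 and 1571.94 FPKM, and its near-identical copy Saa2 was at 319.60 and 265.24 against 80.90, 48.12, 84.34 and 108.08 FPKM, so reads could have been split between them. Cyp2c55, a colonic cytochrome, stood at 472.86 and 437.35 against 1079.18, 1788.03, 1853.35 and 848.07 FPKM. The water channel Aqp4 (184.74 and 70.75 against 101.71, 56.77, 127.96 and 97.65 FPKM) and the sodium-proton exchanger Slc9a3 (147.95 and 38.66 against 93.54, 88.22, 112.23 and 103.03 FPKM) overlapped, with wild-type replicate 1 above and replicate 3 within or below the proximal-type values.

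Of 28 genes for sodium, potassium and water transport, 25 passed, 5 were higher and 1 was lower (median 0.28). Whatever the size, 11 lay above the proximal-type range, 4 below and 10 overlapped, against 21.7% above and 22.0% below over all genes. The epithelial sodium channel subunit Scnn1a stood at 117.84 and 127.50 against 44.60, 33.29, 49.29 and 42.06 FPKM, Scnn1b at 8.70 and 18.43 against 3.96, 2.36, 1.33 and 2.59 FPKM and Scnn1g at 2.75 and 8.46 against 0.22, 0.18, 0.02 and 0.20 FPKM. All 3 subunits were above the proximal-type range, and Scnn1b and Scnn1g were higher in wild-type replicate 3 than in replicate 1. The mineralocorticoid receptor gene Nr3c2 (28.22 and 31.77 against 17.55, 19.16, 21.55 and 22.02 FPKM) and Hsd11b2 (182.10 and 227.33 against 179.34, 142.17, 135.50 and 155.85 FPKM), which shields that receptor from glucocorticoids, lay above by less than 1 log2. So did the Na+/K+ ATPase beta subunit gene Atp1b1 (1069.65 and 1117.74 against 678.52, 685.60, 674.53 and 653.09 FPKM). Aqp1, a water channel, was the lower one, at 7.94 and 6.17 against 27.36, 25.12, 12.87 and 25.33 FPKM.

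Chloride and bicarbonate genes went both ways. Of 23 listed, 20 passed, 6 were higher and 5 lower, with a median of -0.19. Slc26a3, the apical chloride-bicarbonate exchanger, stood at 1189.02 and 1351.47 against 361.04, 213.42, 452.59 and 366.82 FPKM, and the sulphate transporter Slc26a2 at 217.74 and 256.48 against 63.88, 82.15, 105.73 and 85.63 FPKM. The calcium-activated chloride channel Ano1 was at 50.53 and 62.19 against 11.33, 7.61, 13.69 and 13.61 FPKM and the bicarbonate channel Best2 at 16.70 and 38.46 against 3.58, 2.44, 0.70 and 2.82 FPKM. All 4 were higher. Carbonic anhydrases split by isoform: cytosolic Car2 was higher, at 928.54 and 1239.89 against 535.80, 455.43, 523.43 and 472.74 FPKM (0.90 without wild-type replicate 3), whereas cytosolic Car1 was lower, at 945.29 and 1584.11 against 5856.82, 7522.81, 6784.52 and 4496.48 FPKM. Membrane-bound Car4 lay above the proximal-type range by less than 1 log2 (1870.69 and 1386.61 against 851.14, 646.19, 1055.01 and 846.66 FPKM), and membrane-bound Car12 was lower, at 7.42 and 1.41 against 33.14, 36.21, 36.24 and 30.97 FPKM. Cftr, the cyclic AMP-gated chloride channel, overlapped (15.93 and 12.96 against 16.12, 15.86, 15.28 and 16.99 FPKM).

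In a list of 19 claudins and junction genes, 15 passed, 1 was higher and 3 were lower (median -0.03). Cldn8, a sealing claudin of the distal colon, was higher at 42.97 and 84.61 against 24.71, 22.12, 25.09 and 25.05 FPKM. The pore-forming Cldn2 (24.53 and 32.95 against 75.63, 81.61, 39.76 and 69.72 FPKM) and Cldn15 (40.66 and 21.23 against 73.82, 64.75, 53.72 and 69.76 FPKM) were lower, with Cldn4. Without wild-type replicate 3 the list had 0 higher and 1 lower. Structural junction genes such as Tjp1 (29.55 and 30.80 against 26.29, 25.61, 31.88 and 27.33 FPKM) overlapped.

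Of 31 small intestinal absorption genes 22 passed, 7 were lower and 4 higher, with a median of -0.46. Counted at any size, 10 lay below the proximal-type range, 5 above, and 7 overlapped. Over all genes 22.0% lay below and 21.7% above, so the count of 5 above was near the share of all genes. The ileal bile acid importer Slc10a2 stood at 1.52 and 3.61 against 39.65, 62.99, 35.45 and 46.94 FPKM, and the second exporter subunit Slc51b at 79.62 and 30.90 against 152.32, 220.42, 139.15 and 144.19 FPKM. Fabp2, the intestinal fatty acid-binding protein, was at 253.78 and 16.97 against 1026.41, 931.88, 1209.78 and 881.37 FPKM, and Alpi, a brush border phosphatase, at 12.45 and 1.15 against 60.56, 59.65, 68.64 and 74.45 FPKM. For Fabp2 and Alpi wild-type replicate 1 lay between replicate 3 and the proximal-type libraries. The bile acid receptor gene Nr1h4 lay below by less than 1 log2 (40.25 and 35.16 against 69.01, 86.46, 64.21 and 75.45 FPKM). The 4 higher genes were Slc15a1, a peptide transporter (77.05 and 108.52 against 15.52, 8.03, 22.11 and 16.95 FPKM), Slc6a19, a neutral amino acid transporter (8.32 and 4.82 against 0.85, 0.69, 0.52 and 1.54 FPKM), Rbp2, a retinol carrier (82.04 and 136.37 against 32.27, 23.41, 42.96 and 33.11 FPKM), and Abcg5, a sterol exporter (3.18 and 16.25 against 0.86, 1.90, 1.60 and 0.78 FPKM; 0.90 without wild-type replicate 3).

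Fatty acid oxidation genes were spread below the proximal-type levels by small amounts. Of 32 listed, 29 passed, 6 were lower and 0 higher, with a median of -0.47. Counted at any size, 22 of the 29 lay below the proximal-type range, against 22.0% of all genes. The nuclear receptor gene Ppara was at 4.13 and 3.39 against 10.46, 14.11, 10.91 and 15.04 FPKM, and Pdk4, which restrains pyruvate oxidation, at 1.11 and 0.26 against 8.95, 10.00, 10.22 and 13.11 FPKM. Both were lower, whereas the butyrate transporters differed by less than 1 log2: Slc5a8 lay above the range (83.17 and 82.36 against 56.38, 54.98, 75.27 and 59.43 FPKM) and Slc16a1 overlapped (131.18 and 125.04 against 111.99, 99.41, 138.63 and 113.78 FPKM). Ppargc1a, a co-activator of mitochondrial genes, lay above, at 11.97 and 11.94 against 5.71, 6.01, 5.48 and 8.21 FPKM.

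Detoxification genes divided within families. Of 58 listed, 51 passed, 14 were lower and 7 higher, with a median of -0.29. Cyp2c65 stood at 21.34 and 6.35 against 238.65, 276.07, 258.96 and 275.75 FPKM and Cyp4b1 at 6.03 and 1.09 against 65.09, 75.42, 65.35 and 84.29 FPKM, both lower. Cyp2c68, of the same subfamily as Cyp2c65, was higher, at 96.07 and 136.96 against 15.75, 6.90, 18.89 and 16.70 FPKM, as was Cyp2d12 at 95.65 and 109.12 against 6.55, 3.49, 4.52 and 7.25 FPKM. Members of these cytochrome families and of the Ugt1a locus resemble each other closely, so the split of reads between them is uncertain. The glucuronosyltransferase Ugt1a1 was lower, at 21.24 and 7.93 against 78.65, 119.24, 96.79 and 109.43 FPKM, and the carboxylesterase Ces1g was at 7.90 and 1.75 against 40.76, 48.98, 39.01 and 49.23 FPKM. Among the xenobiotic receptors, Nr1i3 was higher (8.28 and 10.26 against 1.30, 1.06, 1.60 and 1.69 FPKM), while Nr1i2 (42.72 and 43.08 against 43.21, 41.32, 38.21 and 44.12 FPKM) overlapped and Ahr differed by 0.11.

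Goblet cell genes split into 5 higher and 5 lower among 20 that all passed, with a median of -0.01. Muc2, the main gel-forming mucin, was lower at 474.81 and 438.37 against 1335.99, 1176.13, 645.08 and 1088.56 FPKM, and so was Spdef, a goblet cell transcription factor, at 17.96 and 15.34 against 70.64, 59.46, 34.31 and 50.13 FPKM. Clca1, a secreted mucus protease, was higher at 1391.80 and 1619.24 against 539.74, 436.51, 211.31 and 504.95 FPKM. Fcgbp, a mucus scaffold protein, was higher at 350.85 and 587.41 against 212.28, 193.86, 88.49 and 221.36 FPKM, as was the trefoil peptide Tff3 at 1778.60 and 2537.30 against 1363.12, 1178.81, 524.12 and 1110.93 FPKM. Knock-out replicate 2 had the lowest proximal-type value for Muc2, Clca1, Fcgbp and Tff3, and without it 2 list members were higher instead of 5; Tff3 then differed by 0.81, and by 0.64 against wild-type replicate 2 alone. Zg16, a lectin that binds gram-positive bacteria, lay above the range by less than 1 log2, at 4330.51 and 5271.86 against 3878.96, 3117.93, 1433.35 and 3140.57 FPKM.

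Glycan-building enzymes showed a similar division. Of 32 glycosyltransferases 30 passed, 4 were higher and 7 lower (median 0.06). B3gnt7 stood at 124.29 and 260.03 against 16.66, 7.79, 8.07 and 9.17 FPKM and the sialyltransferase St3gal6 at 82.15 and 98.18 against 18.25, 13.35, 21.20 and 20.94 FPKM; B3gnt5, which extends glycolipids, was at 9.50 and 21.17 against 3.14, 1.65, 2.04 and 2.17 FPKM and the fucosyltransferase Fut4 at 22.50 and 43.99 against 11.49, 9.21, 5.82 and 8.74 FPKM. Those 4 were the higher ones. On the lower side were the ganglioside enzyme B4galnt1 (24.16 and 2.57 against 83.84, 74.65, 60.33 and 76.70 FPKM), B4galnt2, which makes the Sda antigen (110.75 and 56.86 against 257.11, 321.83, 305.08 and 270.95 FPKM), and Gcnt3, a mucin core-branching enzyme (43.02 and 27.62 against 137.46, 132.26, 132.05 and 129.41 FPKM). Fut2, which fucosylates the proximal colon surface, lay below by only -0.40.

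Of 27 antimicrobial and oxidase genes 22 passed, 7 were higher and 5 lower (median -0.12). Reg3g stood at 1.34 and 0.49 against 65.34, 96.30, 73.69 and 21.10 FPKM and, like its close paralogue Reg3b, was near 0 in the distal-type libraries. Reg4 took the opposite direction, at 109.05 and 196.02 against 11.89, 10.31, 5.61 and 8.34 FPKM. Wfdc2, a secreted protease inhibitor, was higher at 239.02 and 366.39 against 99.30, 61.59, 60.67 and 79.16 FPKM, as were the phospholipase Pla2g5 (8.47 and 13.91 against 1.88, 1.63, 2.59 and 1.55 FPKM) and the superoxide-generating oxidase Nox1 (7.33 and 8.36 against 1.70, 2.29, 2.26 and 1.68 FPKM). The hydrogen peroxide oxidase Duox2 overlapped (65.68 and 20.13 against 65.56, 74.41, 103.30 and 73.12 FPKM), and its maturation factor Duoxa2 was lower (34.17 and 11.21 against 48.60, 57.66, 76.20 and 41.05 FPKM; -0.66 without wild-type replicate 3). Pigr, which carries IgA across the epithelium, lay above by 0.94, at 1291.79 and 1415.35 against 763.56, 678.61, 646.75 and 726.96 FPKM.

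Hormone genes separated by peptide. Of 23 enteroendocrine genes 16 passed the minimum, 2 were higher and 3 lower, with a median of -0.58. Pyy, an L cell hormone, was higher with Insl5, at 158.71 and 143.21 against 75.13, 63.95, 54.46 and 73.38 FPKM, though short of 1 log2 against wild-type replicate 2 alone (0.9953). Nts stood at 0.40 and 0.00 against 15.29, 24.88, 16.61 and 13.64 FPKM, secretin (Sct) at 14.16 and 6.02 against 43.76, 53.05, 34.80 and 43.45 FPKM and somatostatin (Sst) at 7.28 and 3.76 against 22.52, 34.28, 13.58 and 25.63 FPKM, all lower. Gcg, the glucagon-like peptide precursor, overlapped (40.72 and 22.50 against 37.19, 27.12, 17.48 and 33.80 FPKM), and the pan-endocrine gene Chga overlapped as well (33.86 and 25.54 against 43.94, 55.89, 29.42 and 42.34 FPKM). Of 15 tuft cell genes 10 passed, 1 was lower and 0 were higher, with 0 lower without wild-type replicate 3; Trpm5, a tuft cell channel, stood at 3.22 and 0.95 against 3.32, 3.94, 2.64 and 3.19 FPKM, low in wild-type replicate 3 and not in replicate 1. In whole tissue, fewer cells of a type and less RNA per cell cannot be told apart.

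Stem cell and Wnt target genes showed little separation. Of 24 listed 13 passed, and the adhesion receptor gene Cd44 was the only one lower (2.89 and 1.95 against 12.71, 12.45, 7.52 and 10.91 FPKM), with 0 higher and a median of 0.02. Axin2, a Wnt feedback gene, overlapped (3.23 and 2.94 against 4.18, 2.98, 1.74 and 3.68 FPKM), and Lgr5, the crypt stem cell receptor, was below the minimum mean. Of 44 stromal signalling genes 15 passed, 1 was higher and 2 were lower. The higher one was Bmp2, a differentiation ligand also made by surface epithelium, at 28.82 and 31.57 against 6.92, 5.13, 5.91 and 6.98 FPKM; the retinal dehydrogenase Aldh1a1 was lower, at 109.81 and 93.07 against 254.70, 260.95, 268.07 and 249.75 FPKM. Of 20 genes of G2 and mitosis 16 passed, 6 were lower and 0 higher, with a median of -0.74. Ccna2, cyclin A2, stood at 4.66 and 1.65 against 9.53, 9.49, 6.29 and 10.89 FPKM, and the ubiquitin-conjugating enzyme Ube2c at 5.24 and 2.36 against 14.44, 10.05, 7.59 and 12.60 FPKM. Mki67 lay below by -0.80 (5.05 and 2.56 against 6.92, 8.07, 5.28 and 8.54 FPKM). The calls depended on wild-type replicate 3: without it 0 of the 16 were lower, and without replicate 1 9 were. The 6 genes still differed by -0.66 to -0.93 without wild-type replicate 3, short of 1 log2. Whatever the size, 12 of the 16 lay below the proximal-type range in both distal-type libraries, against 22.0% of all genes. Among 15 measured circadian clock genes and 18 measured immediate early genes 0 were higher and 0 lower, with medians of 0.28 and 0.01.

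**Figure D4:**
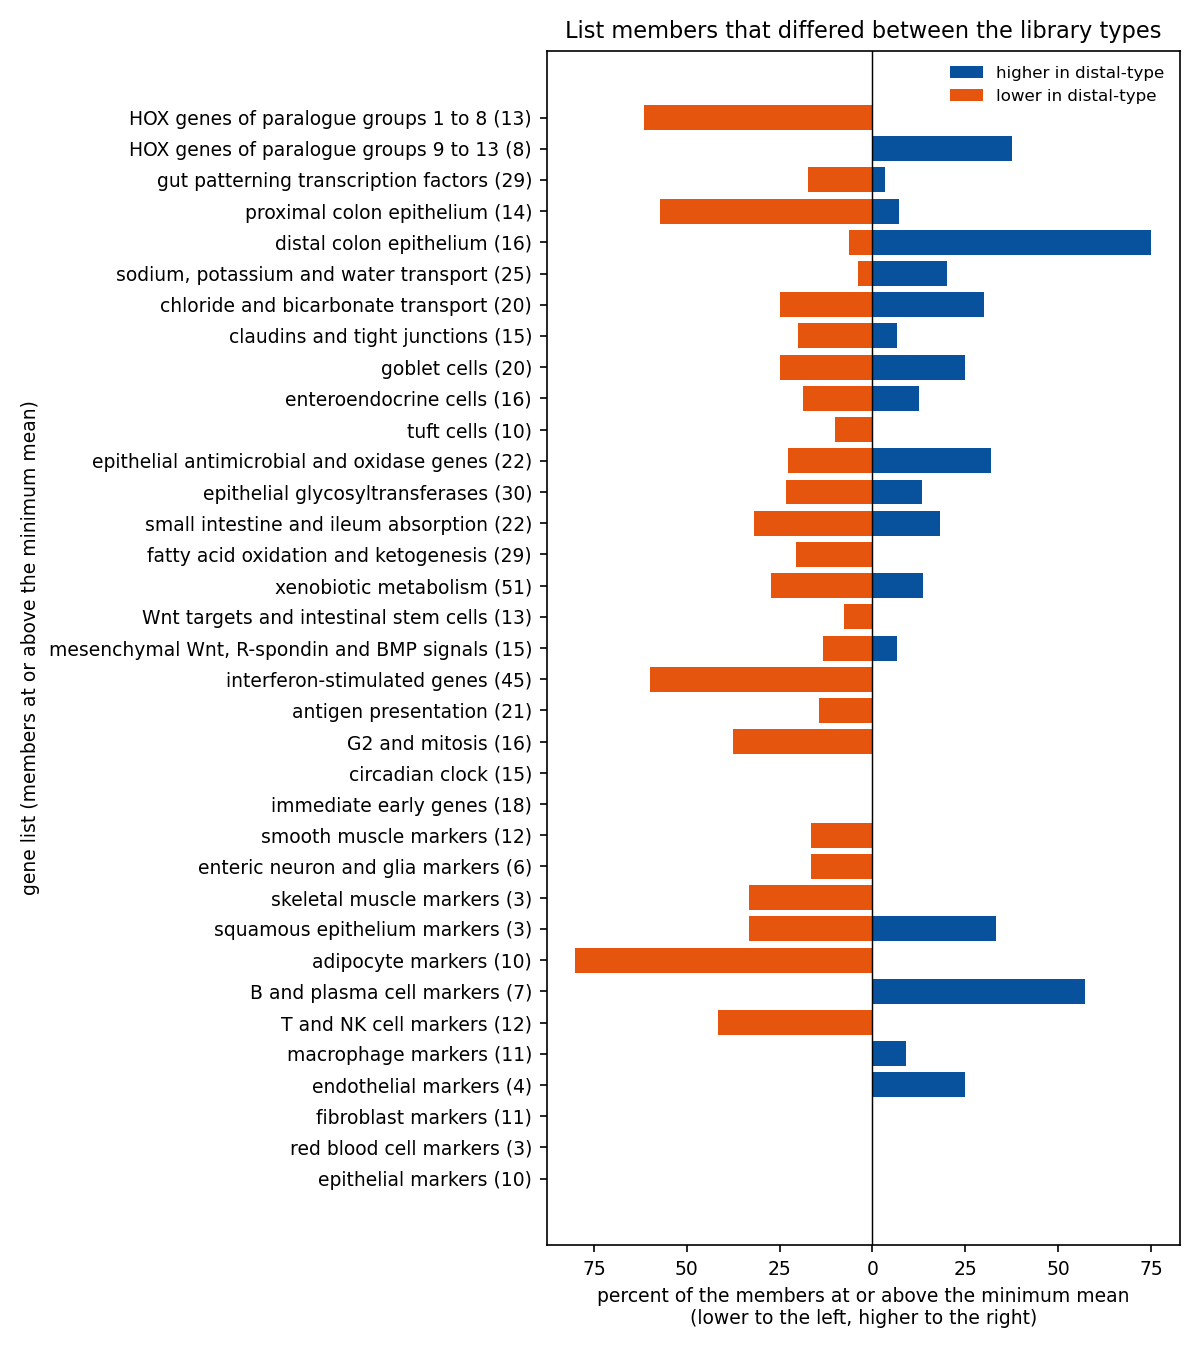
Percent of the measured members of each gene list that were lower (bars to the left) or higher (bars to the right) in the distal-type libraries, with the number measured in parentheses. Distal colon genes stand to the right with 12 of 16, interferon-stimulated genes to the left with 27 of 45, goblet cell genes on both sides with 5 each, and adipocyte markers furthest left with 8 of 10.

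Genes induced by interferon were widely lower in the distal-type libraries. All 45 listed genes passed, 27 were lower and 0 higher, and 39 lay below the proximal-type range, against 22.0% of all genes. The median was -1.14, or -0.87 against wild-type replicate 2 alone. Against that library alone 21 were lower, and 21 were lower when wild-type replicate 3 was left out. Ifit1, an inhibitor of viral translation, stood at 17.26 and 9.92 against 67.76, 108.55, 78.74 and 83.13 FPKM, and the ubiquitin-like modifier Isg15 at 60.10 and 27.69 against 161.59, 253.18, 158.54 and 167.26 FPKM. Irf7, the transcription factor that amplifies type I interferon, was at 125.79 and 57.34 against 325.59, 335.92, 339.03 and 336.97 FPKM. The lowest values were in wild-type replicate 3, the next in replicate 1. The 2',5'-oligoadenylate synthetase Oas3 (11.79 and 3.95 against 37.44, 43.58, 38.01 and 42.48 FPKM) and the antiviral Ifi44 (3.50 and 1.05 against 15.91, 23.36, 14.64 and 17.82 FPKM) had the same order of libraries. Irf1 (98.02 and 88.16 against 90.84, 114.61, 103.86 and 103.41 FPKM) and Gbp2 (14.88 and 26.18 against 10.36, 33.79, 15.84 and 19.61 FPKM), which also respond to interferon gamma, overlapped. Of 23 antigen presentation genes 21 passed, 3 were lower and 0 higher; beta-2 microglobulin (B2m) stood at 872.60 and 467.96 against 1069.75, 1299.88, 1113.47 and 1288.76 FPKM, and H2-T3, the thymus leukaemia antigen of intestinal epithelium, at 10.98 and 1.26 against 40.25, 52.59, 47.45 and 50.25 FPKM. Among class II genes H2-Aa overlapped (79.25 and 51.35 against 36.65, 46.45, 26.63 and 66.43 FPKM), and H2-Ob, at 2.50 and 1.81 against 0.53, 0.55, 0.29 and 1.55 FPKM, lay above the proximal-type range by less than 1 log2. Without wild-type replicate 3 the antigen presentation list had 2 higher and 1 lower.

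Markers of some other cells differed between the types, while most such lists had few or no members higher or lower. Of 14 adipocyte markers 10 passed, 8 were lower and 0 higher, and the summed level of the list was 77.05 to 82.54 FPKM against 119.94 to 236.69. Members such as Adipoq and Car3, with distal-type means of 0.155 and 0.97 FPKM, passed the minimum only through their proximal-type levels. The count and median of this list were thus partly set by the minimum. Adipoq, adiponectin, stood at 0.18 and 0.13 against 1.21, 6.02, 2.35 and 8.90 FPKM, and the fatty acid carrier Fabp4 at 3.58 and 4.51 against 10.57, 28.82, 16.18 and 47.13 FPKM; leptin (Lep) was listed at 0 in both distal-type libraries. The median was -1.85 against all 4 and -0.94 against wild-type replicate 2 alone, which had the lowest proximal-type value for 9 of the 10 genes; against it alone 4 were lower. The part of adipose tissue in the lower lipid genes, such as Lpl (6.32 and 2.78 against 13.04, 17.35, 13.20 and 20.03 FPKM) and Pdk4, was not tested. Of 12 smooth muscle markers 2 were lower (Actg2 and Cnn1) and 0 higher, and the list summed to 467.64 to 527.24 FPKM against 633.79 to 974.55. Without knock-out replicate 2, 0 were lower, since Actg2 and Cnn1 then differed by -0.97 and -0.91. Counted at any size, 10 of the 12 lay below the proximal-type range, against 22.0% of all genes, and the median was -0.61. Of 16 neuron and glia markers 6 passed and the neuropeptide Gal was lower (1.28 and 1.20 against 11.10, 14.19, 7.11 and 11.76 FPKM).

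Lymphocyte markers went in opposite directions by lineage. Of 14 B and plasma cell markers, 7 passed, 4 were higher and 0 lower, and the list summed to 132.95 to 250.04 FPKM against 55.42 to 100.44. Jchain, the joining chain of IgA, stood at 206.38 and 111.57 against 74.51, 86.29, 48.78 and 80.52 FPKM, and the B cell gene Ms4a1 at 5.47 and 2.62 against 0.77, 0.82, 0.75 and 2.20 FPKM. The B cell count rested on wild-type replicate 1, with 0 higher without it, 7 without wild-type replicate 3 and 2 without knock-out replicate 2. Of 15 T and NK cell markers, 12 passed, 5 were lower and 0 higher (sum 16.57 to 32.43 against 62.59 to 108.29 FPKM). Gzma, a granzyme of cytotoxic lymphocytes, was at 4.99 and 2.20 against 15.06, 23.36, 14.61 and 16.69 FPKM, and the chemokine Ccl5 at 9.11 and 4.48 against 29.49, 36.33, 18.77 and 31.65 FPKM. For both the distal-type libraries lay below all others, and the list had 3 lower without wild-type replicate 3 and 10 without replicate 1. Macrophage markers had 1 higher member of 11 measured, Lyz2 (121.24 and 76.03 against 47.76, 38.57, 39.55 and 56.80 FPKM), which differed by 0.74 without wild-type replicate 1. Endothelial markers had 1 of 4, Ccl21a (32.59 and 35.26 against 8.67, 12.73, 11.85 and 12.68 FPKM). Counted at any size, 6 of the 11 and 3 of the 4 lay above the proximal-type range and 0 below, against 21.7% of all genes above. The macrophage list summed to 151.06 to 207.15 FPKM against 83.79 to 120.93, and the endothelial list to 46.78 to 48.80 against 16.81 to 22.15. The part of these cells in the interferon, antigen presentation and antimicrobial lists was not tested. Fibroblast markers (11 measured) and pan-epithelial markers (10 measured) had 0 members higher and 0 lower. Skeletal muscle, squamous, urogenital and exocrine pancreas markers were mostly at or near 0, with Cela1 (181.85 and 300.05 against 64.82, 51.56, 69.64 and 58.82 FPKM), which is also made outside the pancreas, as an exception in both types, and Sprr1a (10.90 and 2.61 against 41.53, 41.96, 42.61 and 30.54 FPKM), a squamous envelope gene, lower in the distal-type libraries. Ly6d, from the same squamous list, was higher (6.14 and 3.38 against 1.63, 0.98, 1.48 and 2.58 FPKM). It differed by 0.75 without wild-type replicate 1 and by 0.97 without knock-out replicate 1. Ckm, the muscle creatine kinase, was lower (0.96 and 1.03 against 4.01, 4.21, 4.28 and 3.27 FPKM). Of the Paneth cell markers, 2 were measured, Lyz1 higher (21.68 and 14.59 against 7.16, 7.77, 6.39 and 11.32 FPKM; 0.80 without wild-type replicate 1) and the protease gene Mmp7 lower (0.26 and 0.06 against 2.55, 3.33, 1.47 and 2.77 FPKM), and defensins were at or near 0. Of 3 measured red blood cell markers 0 were higher and 0 lower.

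The 2 distal-type libraries were not equally far from the proximal-type group. Wild-type replicate 3 lay further out than replicate 1 for 234 of the 269 higher genes (87%) and for 355 of the 387 lower genes (91.7%), whereas over all genes replicate 3 was above replicate 1 for 55.4% and below for 44.3%. Fxyd4, Scnn1g, Fabp2, Isx, Alpi and Hoxd13 had the wide gaps given above. Mptx1 and Insl5 were exceptions, with the higher level in replicate 1. Using replicate 1 as the only distal-type library left 213 higher and 268 lower genes, and using replicate 3 alone left 345 and 560.

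**Figure D5:**
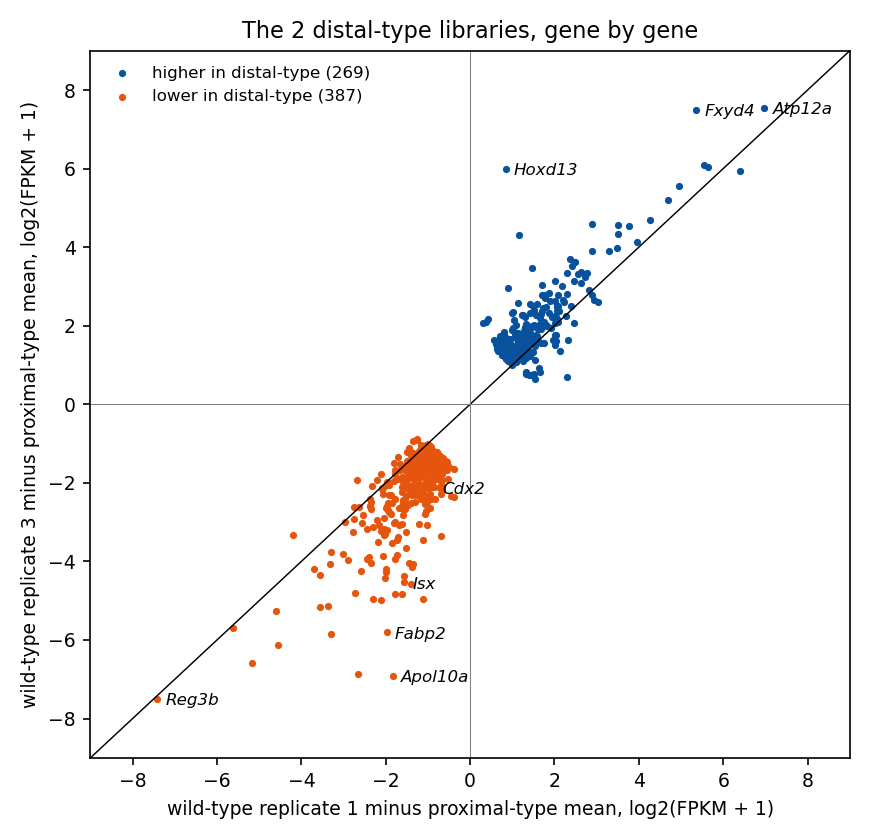
Distance of each higher or lower gene from the proximal-type mean on the log2(FPKM + 1) scale, in wild-type replicate 1 (x axis) and wild-type replicate 3 (y axis); the diagonal marks equal distance. Most points lie further from 0 on the y axis than on the x axis, and Fabp2 and Fxyd4 lie well off the diagonal.

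Within the wild-type genotype, comparing replicates 1 and 3 with replicate 2 only, 265 genes were higher and 404 lower. Zfp280c was among the 269 higher genes over all 6 libraries, and its difference was 0.23 within the wild-type genotype. Against wild-type replicate 2 alone Atp12a differed by 6.76 log2, Tgm3 by 5.37, Reg3b by -7.38 and Osr2 by -5.56, so the wild-type libraries differed among themselves for these genes.

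The only genotype comparison that colon type did not divide set the 3 knock-outs against wild-type replicate 2, whose spread was assumed to equal that of the knock-outs. In limma with Benjamini-Hochberg adjustment over 11366 genes, 0 genes were higher (0.00%) and 0 lower (0.00%) at an adjusted p under 0.05, and 325 had an unadjusted p under 0.05, 144 of them higher in the knock-outs and 181 lower. Zfp280c differed by -1.52 ± 0.18 (SE, 3 against 1 library; limma adjusted p = 0.405), with adjusted p from 0.281 to 1 over the alternatives that kept the gene. The 2 other genes of lowest p were 5730507C01Rik, at 1.42 ± 0.12 with a limma adjusted p of 0.145, and the histone gene Hist2h3c2, at 1.65 with a limma adjusted p of 0.405, whose near-identical copies make its reads uncertain. No gene therefore passed, Zfp280c included. The interferon list had 39 of 45 members with a knock-out mean above wild-type replicate 2 (median 0.29, against -0.03 over all genes), 7 of them at an unadjusted limma p under 0.05, and 0 passed the adjusted threshold. The adipocyte list had 9 of 10 above (median 0.72), 7 at an unadjusted p under 0.05 in limma. The antigen presentation list had 21 of 21 above (median 0.24). Goblet cell genes had 18 of 20 below (median -0.49) and distal colon genes 12 of 16 below (median -0.23). The goblet cell means took in knock-out replicate 2, which had the lowest proximal-type value for Muc2, Clca1, Fcgbp and Tff3. Over all genes 6761 of 11366 were below and 4603 above. In the main fit the p-values measure only the spread among the 3 knock-outs, which may be technical, and each value rests on 1 wild-type library. Since the comparison did not call even Zfp280c, the knocked-out gene, the absence of called genes does not show that the genotypes were alike.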

How the data were processed

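The authors deposited 1 table of FPKM values, per the file headers, with 1 column for each of the 6 mouse libraries, printed to 2 decimals; 0 columns of per-sample values were left without a sample. HISAT, Bowtie2, HTSeq, edgeR and the human build hg19 are listed in the submitters' processing notes without roles, and a mouse build is not given in the sources used here. Genes with a mean of at least 1 FPKM were kept and compared as log2(FPKM + 1). The split used Hoxb13 at 100 FPKM. Members and lists were chosen with earlier results of these data known. Named genes were the 3 markers, Zfp280c, the 15 furthest in each direction without overlap, up to 5 members per list and the 3 of lowest p between genotypes; other list members named were chosen after their values were seen. Genes can belong to several lists. The knock-outs were tested against wild-type replicate 2 in limma 3.58.1 (R 4.3.3; trended eBayes, Benjamini-Hochberg adjustment). Both steps were tested on simulated data. Alternatives covered the pseudocount, minimum, scaling, difference size, library subsets and variance estimation. A planned search for promoter motifs was not run, and mouse promoter sequences were not used here. Some list members are counted but not reported here by name.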

Additional observations from a re-analysis of the deposited data

Results flagged for a closer look

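In each named gene the 4 proximal-type libraries were examined for 1 value far from the other 3 by Dixon's criterion at the 95% level, which chance meets in about 1 group in 20; 10 of 161 genes met it. Knock-out replicate 2 was apart for 5 of the 10, low each time, and over the whole table it was the lowest of the 4 for 52.9% of genes. It had 8.91 FPKM of Hoxb6 against 17.63 to 18.24 in the others and 3.30 FPKM of Hoxb8 against 6.20 to 6.86. Fcgbp was at 88.49 FPKM there against 193.86 to 221.36, Birc5, a mitotic survivin, at 6.21 against 8.77 to 9.04, and the lipopolysaccharide co-receptor gene Cd14 at 11.86 against 15.81 to 16.27. Knock-out replicate 3 was apart for Casp14 (0.14 FPKM against 0.00 to 0.02), Sprr1a (30.54 against 41.53 to 42.61) and Ms4a1 (2.20 against 0.75 to 0.82). Knock-out replicate 1 was low for Cldn8, at 22.12 FPKM against 24.71 to 25.09. Wild-type replicate 2 was apart for Zfp280c, at 2.25 FPKM against 0.09 to 0.22 in the 3 knock-outs.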

How the results depend on the processing

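The count of higher genes ran from 190 to 344 and that of lower genes from 280 to 564 over the pseudocount of 0.1, a minimum of 5 FPKM, no minimum, quantile normalization, median centring and the wild-type libraries alone. Requiring a difference of at least 2 left 66 higher and 101 lower. Leaving out each library in turn gave 213 to 345 higher and 268 to 560 lower. For named genes 1702 recomputed differences stayed within the spread between libraries and 206 moved further. Genes without overlap had 0 sign changes, but only quantile normalization and median centring could have produced any. Leaving out libraries, or changing the pseudocount or minimum, cannot reverse the order of libraries that do not overlap. Of 195 list members or named genes that were higher or lower, 53 lost that call in at least 1 leave-one-out, 36 of them without wild-type replicate 3 and 0 without wild-type replicate 2, and 27 lost it in the wild-type libraries alone. Using fewer libraries cannot create overlap, so each loss was a difference falling below 1 log2, and the separation itself was not tried by these counts. Of the list medians 354 stayed within the spread and 61 moved further. Among medians larger than that spread, the sign changed only for lists with 3 measured genes: skeletal muscle, -0.30, went to 0.26 with a minimum of 5 FPKM and 0.0001 with none, squamous epithelium, 0.34, to -2.60 with a minimum of 5 FPKM, and red blood cells, -0.58, ranged from -0.99 to 0.036 when each library was left out, the highest without wild-type replicate 1; the set of genes measured or of libraries differs in each. The knock-out comparison in limma called 0 genes in all its alternatives, with 234 to 798 at an unadjusted p under 0.05. No paired analysis was possible because the knock-out group of 3 was set against 1 wild-type library. Depth is unknown, so differences of genes near 1 FPKM carry no counting error.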

Other observations

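Within the proximal-type group some libraries carried levels that no other library shared. In knock-out replicate 1 the ileal bile acid carrier Fabp6 stood at 55.58 FPKM, and at 4.38 to 13.65 FPKM in the other 5 libraries, the peptidase Anpep at 10.97 against 0.83 to 2.49, and the lipoprotein gene Apoa1 at 3.67 against 0.06 to 0.33. The cytochrome Cyp3a44 was at 9.51 FPKM in the same library, with 3.40 in knock-out replicate 2 and at most 0.71 in the others. Cyp1a1, a target of the aryl hydrocarbon receptor, stood at 53.66 FPKM in knock-out replicate 2 and at 0.02 to 0.39 FPKM elsewhere, while Ahr itself was at 2.94 FPKM there. These genes were chosen after their values were seen, and other absorption genes had their highest level elsewhere: Fabp2 in knock-out replicate 2, at 1209.78 FPKM, and Alpi in knock-out replicate 3, at 74.45 FPKM.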
